A study of Rattus norvegicus with 9 samples.

Results

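The nuclear genes of oxidative phosphorylation were compared between skull and limb bone of the rat. Members were all genes on the GeneChip whose symbol began with Nduf, Uqcr, Cox4 to Cox8 or Atp5, or was Sdha, Sdhb, Sdhc or Sdhd. Where several probe sets named only that gene, the brightest on average over the 9 arrays stood for it. Of 103 probe sets with such symbols, 96 named 1 gene and 7 named several and were left out, which gave 86 members of the 14217 genes tested. The 86 comprised 34 subunits of complex I, 4 of complex II, 7 of complex III, 18 of complex IV, 16 of complex V, 6 assembly factors of complex I and 1 pseudogene, Cox6c-ps1. The symbol rule brings in genes that are not core subunits, such as the ATPase inhibitor Atp5if1 and the supercomplex factor Cox7a2l.

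Total RNA came from untreated male CD rats, an outbred stock, weighing about 110 g. The skull group held 4 arrays of calvaria, the vault of the skull, and the limb group held 5 arrays of ulna, a weight-bearing long bone of the forelimb, and the study asked whether the sites differ in basal expression. The arrays are called skull 1 to 4 and limb 1 to 5 here. By the study's methods, soft tissue, epiphyses and sutures were removed from the bones, and each extract came from a pool of several rats, so that the spread between arrays is a spread between pools and not between single animals. Whole bone was extracted, so marrow, vessels, attached tissue and bone cells all contribute RNA. One label field names the calvaria for limb 1 to limb 4, against their titles and source names. The signal of Hoxa9, a gene of limb and trunk patterning, was 60.4 to 79.0 units on the 5 limb arrays and 1.82 to 4.80 on the 4 skull arrays, so that limb 1 to limb 4 went with limb 5.

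Oxidative phosphorylation takes place in the inner mitochondrial membrane. Complexes I and II pass electrons from NADH and succinate to coenzyme Q, complex III passes them on to cytochrome c, and complex IV, cytochrome c oxidase, hands them to oxygen. Complexes I, III and IV pump protons, and complex V, the ATP synthase, lets protons flow back to make ATP. A few subunits of complex IV exist as isoforms from separate genes. Cox6a2, Cox7a1 and Cox8b are the forms of heart and skeletal muscle, and Cox7a1 and Cox8b are also known from brown fat, while Cox6a1 and Cox8a are found in most tissues. Mitochondrial DNA encodes further subunits of complexes I, III, IV and V, and none of the 13 listed for it had a named probe set here.

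No upstream sequence was at hand for Cox6a1. The sequences upstream of the other isoform genes are shown because Cox6a2 and Cox8b carried the only 2-fold differences among the members. Each is the 250 bases that precede the annotated start of the gene in RefSeq, on the GRCr8 build, read 5′ to 3′ on the strand of the gene and ending at the base before the start. Cox6a2 is at chr1:192219717-192219966 (minus strand), Cox8b at chr1:205408274-205408523 (minus strand), Cox7a1 at chr1:94568966-94569215 (plus strand) and Cox8a at chr1:213833624-213833873 (minus strand). Capitals mark matches, on either strand, to the letters TAAAAAT (a core bound by the muscle factor MEF2), CAGCTG (an E-box of the kind bound by myogenic factors) and CCGGAAG (bound by GABP).
Cox6a2: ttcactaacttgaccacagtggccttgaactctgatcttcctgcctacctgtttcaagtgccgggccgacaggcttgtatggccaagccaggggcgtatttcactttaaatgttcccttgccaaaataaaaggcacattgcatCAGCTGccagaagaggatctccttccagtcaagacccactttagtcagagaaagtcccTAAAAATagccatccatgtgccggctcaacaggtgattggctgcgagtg
Cox8b: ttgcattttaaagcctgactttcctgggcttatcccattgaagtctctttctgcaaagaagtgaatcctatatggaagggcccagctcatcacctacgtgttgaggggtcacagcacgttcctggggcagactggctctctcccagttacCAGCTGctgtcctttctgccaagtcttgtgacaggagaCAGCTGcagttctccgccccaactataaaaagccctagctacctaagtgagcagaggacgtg
Cox7a1: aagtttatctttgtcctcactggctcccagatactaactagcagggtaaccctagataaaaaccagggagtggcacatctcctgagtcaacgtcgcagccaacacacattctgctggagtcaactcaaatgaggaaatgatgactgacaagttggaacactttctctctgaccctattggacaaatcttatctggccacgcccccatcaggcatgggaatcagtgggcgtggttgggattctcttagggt
Cox8a: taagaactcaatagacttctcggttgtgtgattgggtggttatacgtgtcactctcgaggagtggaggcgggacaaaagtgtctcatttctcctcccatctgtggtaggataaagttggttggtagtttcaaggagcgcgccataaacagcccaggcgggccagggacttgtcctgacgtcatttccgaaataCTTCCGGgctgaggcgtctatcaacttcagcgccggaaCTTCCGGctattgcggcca

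The Cox6a2 sequence held 1 MEF2 core, 49 to 43 bases before the start, and 1 E-box, 107 to 102 bases before it. Cox8b held 2 E-boxes, at 100 to 95 and at 62 to 57 bases, and no MEF2 core. Cox7a1 held none of the motifs searched, and Cox8a, the form found in most tissues, held CCGGAAG on the opposite strand at 57 to 51 and at 19 to 13 bases. Across the members, 78 had such a sequence. CCGGAAG was present in 21 of them (26.9%) and in 7.27% of all 33469 sequences, or 12.9% of the 11700 that belong to tested genes. GCATGCG, the core of the site of nuclear respiratory factor 1, was present in 11 members (14.1%), in 2.93% of all sequences and in 4.94% of those of tested genes. The 11 were Atp5me, Atp5mg, Atp5pf, Atp5po, Ndufa11, Ndufa4, Ndufa6, Ndufaf4, Ndufaf5, Sdhb and Uqcrc1. AAGGTCA, an oestrogen-related receptor site, was present in 6 members (7.69%) against 3.99% of all and 2.76% of tested genes. Of the muscle motifs, TAAAAAT was found in 2 members, Atp5f1a and Cox6a2 (2.56%, against 6.28% of all and 3.18% of tested genes), and CAGCTG in 8 (10.3%, against 12% and 12.8%). These are matches of letters on either strand, not measured binding sites. The matches marked in the sequences shown do not overlap one another.

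Differences are given as log2 of the skull signal minus log2 of the limb signal, with the standard error and an adjusted p from limma over all 14217 genes (Benjamini-Hochberg). A gene was called at an adjusted p below 0.05, with a difference of at least 2-fold required where stated. By the 2-fold rule, 2 members were lower in skull, Cox6a2 and Cox8b, and none was higher. That rule called 8.07% of all genes, 4.47% lower and 3.59% higher. At any size 12 members were lower and 2 higher, which is 16.3% of the members against 32.3% of all genes (18.1% lower, 14.2% higher) and 44.1% of the 9481 bright genes, those whose mean signal was no lower than the median of all signals. Skull and limb signals were fully separate for 14 members (16.3%), against 28.9% of all genes and 39.3% of the bright genes. The count of higher members depended on the scaling of the arrays. It was 2 against 12 lower with each array scaled to its median, 11 against 13 lower after quantile normalisation and 8 against 12 lower without further scaling.

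The 83 members outside the muscle isoforms lay close to no difference. Their median log2 difference was -0.05, beside -0.02 over all genes, and they ranged from -0.85 (Atp5if1) to 0.64 (Cox6b2). The median was 0.02 after quantile normalisation, 0.0032 without further scaling and 0.01 without skull 4, so that its sign was not settled. The 95% confidence interval lay within 2-fold in either direction for 81 of the 83 (97.6%), against 62.3% of all genes and 80.8% of those at or above the median signal. It lay within 0.5 on the log2 scale for 59 (71.1%), against 28.8% and 40.9%. Of these 83 members, 80 were at or above the median signal, and their median coefficient of variation between arrays was 12.8% in skull and 8.63% in limb.

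**Figure D1:**
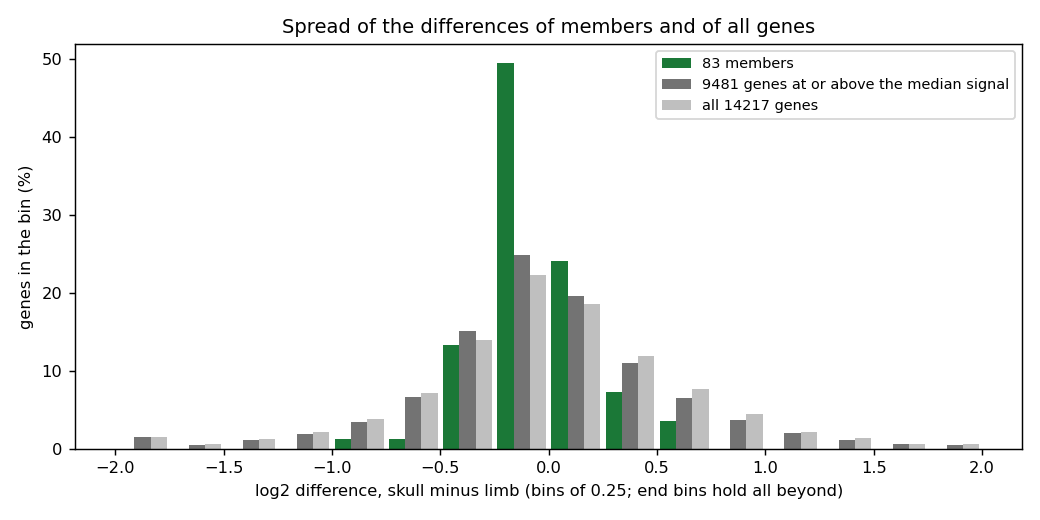
Percentage of genes (vertical axis) in each bin of log2 difference, skull minus limb (horizontal axis), for the 83 members outside the muscle isoforms, for genes at or above the median signal and for all genes, with end bins holding everything beyond. Of the members, 49.4% lie between -0.25 and 0 and 24.1% between 0 and 0.25, against 22.3% and 18.5% of all genes.

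Cox8b and Cox6a2, muscle isoforms of complex IV, stood apart from every other member. Cox8b gave 3.64, 2.13, 1.97 and 1.06 units on skull 1 to 4 and 533, 440, 244, 174 and 161 on limb 1 to 5. The groups did not overlap, the lowest limb array was 44.2 times the highest skull array, and 3 of 4 skull arrays lay at or below the floor of 2.51 set before taking logs. The fitted difference was -6.64 ± 0.38 (SE, adjusted p = 1.41e-05). All skull arrays lay under the brightest control probe set for a bacterial tryptophan gene that rat RNA lacks (8.34 units), so the size of the difference is not resolved. Against that control level the geometric mean of the limb arrays, 276 units, was 33.1 times higher.

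Cox6a2 gave 6.28, 18.4, 20.7 and 19.6 units on skull 1 to 4 and 508, 423, 231, 212 and 157 on limb 1 to 5. Again no skull array reached the limb arrays, and 3 of 4 skull arrays lay above the control level. The difference was -4.24 ± 0.46 (adjusted p = 0.000162). Because skull 1 lay below the control level, the size of this difference is not exact either, and it was -3.22 with a pseudocount in place of the floor. For both genes limb 1 was the highest limb array and limb 5 the lowest. Cox7a1, the remaining muscle isoform, was dim at both sites. It gave 15.7, 18.4, 4.43 and 18.3 units in skull and 31.3, 19.7, 23.4, 3.09 and 21.3 in limb. The groups overlapped (-0.34 ± 0.73, adjusted p = 0.77), and the 95% interval of -2.0 to 1.31 leaves room for a 2-fold difference either way.

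The isoforms of most tissues were not called. Cox6a1 gave 1436, 1623, 1778 and 1334 units in skull and 1414, 1385, 1377, 1390 and 1166 in limb, a difference of 0.19 ± 0.10 (adjusted p = 0.177, interval -0.03 to 0.41). Cox8a gave 1720, 2262, 2164 and 2000 units in skull and 1818, 1838, 1789, 1811 and 1700 in limb, a difference of 0.18 ± 0.08 (adjusted p = 0.148, interval -0.01 to 0.37). Both were called higher in skull after quantile normalisation (adjusted p = 0.0168 and 0.0247), Cox6a1 also without further scaling (0.049) and Cox8a also without skull 1. For each pair the muscle form was far lower in skull, and the interval of the other form excluded a 2-fold difference. Signals of different probe sets are not on a common scale, so the share of each isoform in the bone was not estimated. Cox7a2, the counterpart of Cox7a1, was not analysed here.

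**Figure D2:**
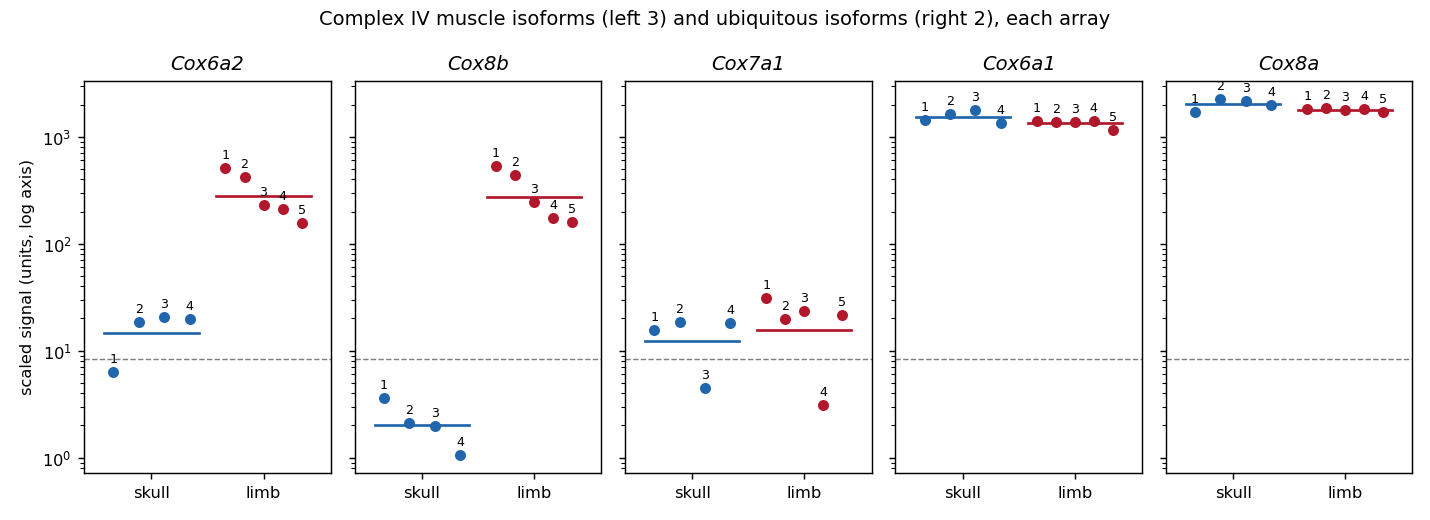
Scaled signal (log axis) of the muscle isoforms Cox6a2, Cox8b and Cox7a1 and of Cox6a1 and Cox8a on each array, numbered by replicate, with the geometric mean of each site as a line and the brightest absent-transcript control, 8.34 units, dashed. Limb arrays of Cox6a2 (157 to 508) and Cox8b (161 to 533) lie above all skull arrays, whereas Cox6a1 and Cox8a lie between 1166 and 2262 at both sites.

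Markers of skeletal muscle moved with Cox6a2 and Cox8b. Of 29 muscle markers measured, 28 were at least 2-fold lower in skull, against 4.47% of all genes. The median difference of the 29 was -5.60. Their summed signal was 1038 to 1115 units on the skull arrays and 13201 to 34160 on the limb arrays. Acta1, the actin of skeletal muscle, was 4.44 to 17.8 in skull and 2345 to 4506 in limb, and myoglobin (Mb) was 0.76 to 9.16 and 511 to 1379. Limb 1 was the highest limb array for 28 of the 29 and limb 5 the lowest for 26, the same extremes as for Cox6a2 and Cox8b. The exception in direction was Myh1, a fast myosin heavy chain, whose probe set was higher in skull (0.59 ± 0.12, adjusted p = 0.00449). That probe set gave 532 to 696 units in skull and 351 to 509 in limb, and was the largest part of the skull sums. The part of attached muscle in the 2 isoform differences was not tested, and in whole bone fewer cells of a type cannot be told apart from less RNA per cell. Ucp1, the defining gene of brown fat, stayed below the control level on all 9 arrays (0.87 to 7.31 units). Of 10 genes in a list for brown adipocytes, not all of them particular to brown fat, 5 were lower in skull and 1 higher. These counts stand beside 18.1% and 14.2% of all genes. The lower ones were Cidea, Cpt1b, which is also a muscle form, and Adipoq, Fabp4 and Plin1, which are genes of fat cells in general. The higher one was Zic1, of a family that the study names among its skull genes. Ucp1, Elovl3, Dio2 and Ppargc1a were not called. Summed signals of the 10 were 397 to 607 in skull and 739 to 1263 in limb. Fabp4 was the largest part, at 210 to 365 and 453 to 759 units, so the sums do not stand for brown fat alone.

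Of the 34 subunits of complex I, 7 were lower in skull and none higher, with a median difference of -0.13. The share called lower, 20.6%, stands beside 18.1% of all genes called lower, and the share called in either direction beside 32.3%. All 34 were bright genes as defined above. Of the 9481 bright genes, 2372 were called lower and 44.1% were called in either direction, so complex I did not exceed genes of like signal. Their intervals lay within 2-fold for all 34. Counts by part of the complex are small, stand beside the same shares of all genes and of bright genes, and were not tested against one another. In the N module, which binds NADH, 4 of 10 members were lower, in the Q module, which reduces coenzyme Q, 0 of 5, and in the membrane arm 3 of 19. Median differences were -0.23, -0.13 and -0.12.

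Ndufa8, an accessory subunit of the membrane arm, had the lowest difference in complex I. It gave 536, 541, 621 and 435 units in skull and 758, 786, 902, 748 and 817 in limb, without overlap (-0.60 ± 0.10, adjusted p = 0.0019). Ndufs4, an accessory subunit needed for a stable N module, gave 127, 107, 119 and 83.1 units in skull and 150, 141, 162, 147 and 154 in limb (-0.48 ± 0.12, adjusted p = 0.0119). Every limb array lay above every skull array for this gene too. The other called subunits of complex I were named because they passed the test. Ndufv3, beside the NADH-binding subunits, was 178 to 242 units in skull and 277 to 341 in limb (-0.46 ± 0.10, adjusted p = 0.00789), and Ndufs6, which carries zinc, was 766 to 963 and 1141 to 1267 (-0.44 ± 0.08, adjusted p = 0.00207). A second probe set of Ndufv3, at a mean of 47.1 units, was not called (-0.35 ± 0.22), and the mean of both probe sets gave an adjusted p of 0.0629.

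Smaller differences were found for accessory subunits, namely Ndufa6 (-0.33 ± 0.09, adjusted p = 0.0205), Ndufb3 (-0.33 ± 0.09, adjusted p = 0.0248) and Ndufb7 (-0.25 ± 0.05, adjusted p = 0.00497). Skull and limb signals were separate for each of these. The calls of Ndufa6 and Ndufb3 were lost when skull 1 was left out, and that of Ndufb3 also when limb 1 or limb 2 was. The catalytic subunits of the complex showed no call. Ndufv1, which holds the NADH site, gave 616, 686, 684 and 569 units in skull and 643, 695, 658, 689 and 614 in limb (-0.05 ± 0.07, interval -0.21 to 0.11). Ndufs1, the largest iron-sulphur subunit, gave 328, 351, 377 and 283 in skull and 346, 294, 289, 271 and 297 in limb (0.16 ± 0.10, interval -0.06 to 0.37).

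At the upper end of complex I, Ndufa3, a small accessory subunit of the membrane arm, gave 704, 899, 936 and 656 units in skull and 454, 682, 650, 624 and 375 in limb, with 1 limb array inside the skull range (0.54 ± 0.20, adjusted p = 0.0675). Ndufa2 gave 592, 654, 727 and 492 in skull and 568, 598, 490, 552 and 358 in limb (0.27 ± 0.17, adjusted p = 0.257). Neither passed the test. Of the 6 assembly factors of complex I, 1 was lower in skull: Ndufaf3, at 191 to 215 units against 240 to 290 in limb (-0.36 ± 0.07, adjusted p = 0.00433). The other 5 ranged from -0.07 to 0.09.

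**Figure D3:**
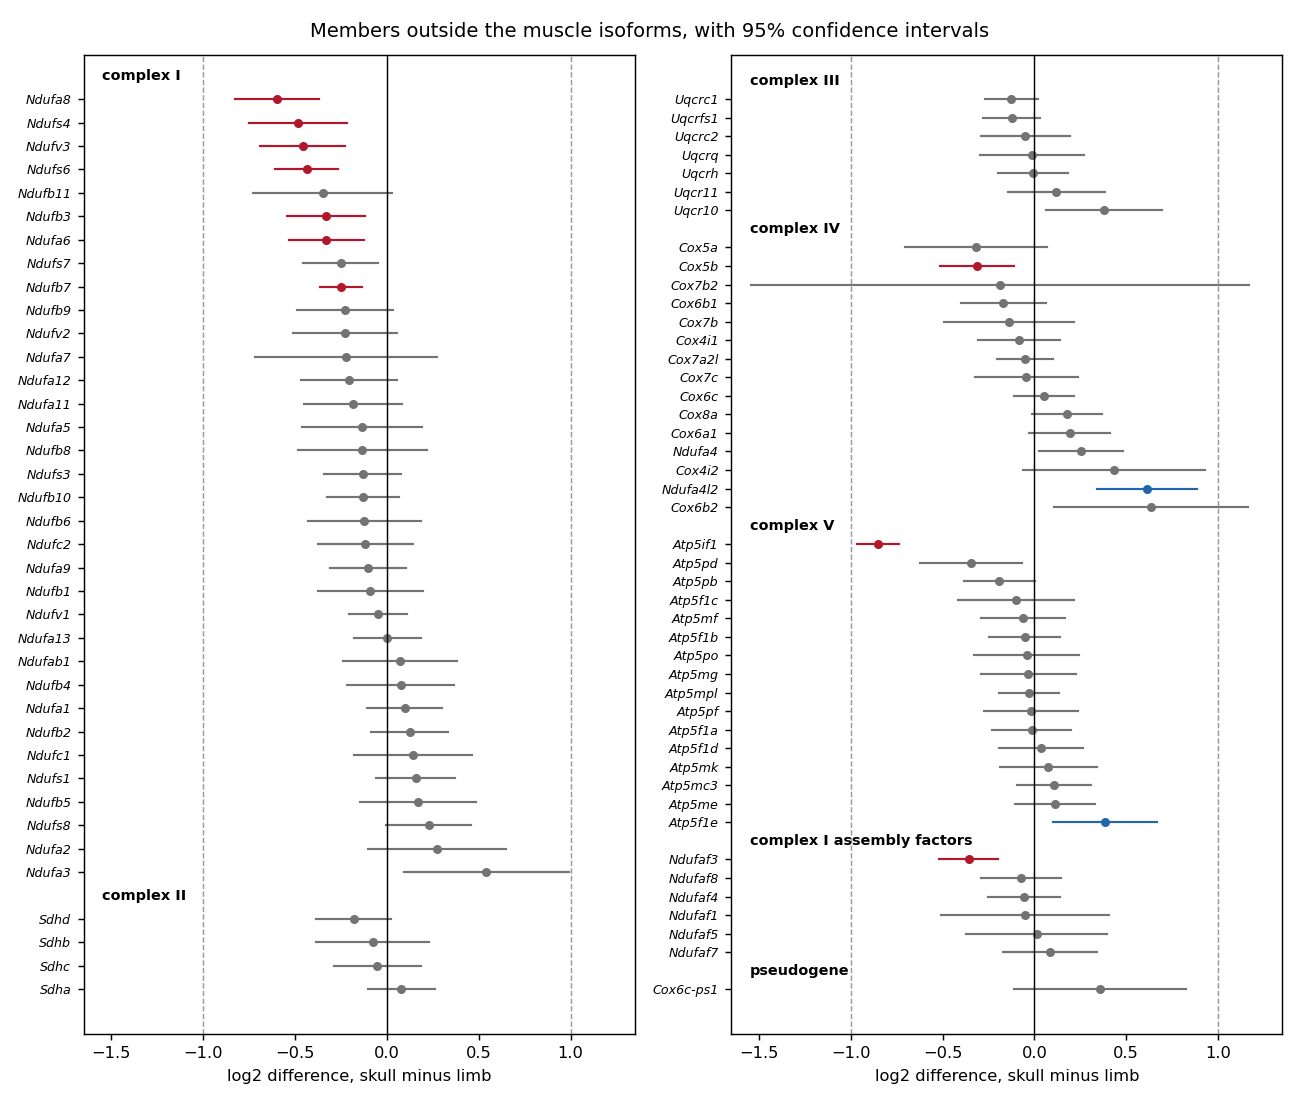
Log2 difference, skull minus limb, with its 95% confidence interval (horizontal axis) for each of the 83 members outside the muscle isoforms, by complex. Red marks the 10 called lower in skull, blue the 2 called higher and grey the rest, with dashed lines at 2-fold, which the interval crosses only for Cox7b2 and Cox6b2.

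No gene of complex II was called among its 4. Sdha, the flavoprotein that oxidises succinate, gave 735, 649, 833 and 637 units in skull and 662, 677, 680, 641 and 700 in limb (0.08 ± 0.08, interval -0.10 to 0.26). Sdhb, the iron-sulphur subunit, gave 709, 934, 995 and 679 in skull and 1029, 912, 817, 782 and 798 in limb (-0.08 ± 0.14, interval -0.39 to 0.23). The sites overlapped widely for both. The membrane anchors Sdhc (512 to 696 in skull, 601 to 753 in limb, -0.05 ± 0.10) and Sdhd (579 to 797 in skull, 769 to 838 in limb, -0.18 ± 0.09) were not called either. A dimmer probe set of Sdhd, at 295 to 393 units in skull and 440 to 468 in limb, did differ (-0.34 ± 0.08, adjusted p = 0.0172 over all probe sets), so the probe sets of this gene disagreed in the call.

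None of the 7 subunits of complex III was called, and their median difference was -0.01. Uqcrc1, a core subunit, gave 942, 966, 1034 and 860 units in skull and 1001, 1073, 1087, 980 and 1043 in limb (-0.13 ± 0.06, adjusted p = 0.17). Uqcrfs1, the Rieske iron-sulphur protein, gave 1272, 1293, 1375 and 1095 in skull and 1369, 1401, 1372, 1368 and 1326 in limb (-0.12 ± 0.07, adjusted p = 0.214). Skull 4 was the lowest array for each. Uqcr10, a small accessory subunit, had the highest difference of the complex, with 1709, 1896, 2447 and 1494 units in skull and 1623, 1466, 1445, 1381 and 1250 in limb (0.38 ± 0.14, adjusted p = 0.0683), and the next highest, Uqcr11, was at 0.12 ± 0.12.

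Among the 15 subunits of complex IV outside the muscle isoforms, 1 was lower and 1 higher. Cox5b, a subunit found in most tissues, gave 1358, 1411, 1587 and 1185 units in skull and 1879, 1734, 1666, 1598 and 1691 in limb (-0.31 ± 0.09, adjusted p = 0.0256). The groups were separate by a narrow margin, 1587 against 1598, and the call was lost without skull 1, skull 2, limb 1 or limb 2, each left out in turn (highest adjusted p = 0.0674). Cox4i1, the form of subunit 4 in most tissues, gave 2760, 2824, 2964 and 2303 in skull and 2976, 2911, 3198, 2665 and 2619 in limb (-0.09 ± 0.10, interval -0.31 to 0.14). Cox5a had a low signal for a member, at 48.7 to 66.8 units in skull and 56.2 to 94.3 in limb (-0.32 ± 0.17, adjusted p = 0.195).

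Ndufa4l2, a paralogue of the complex IV subunit Ndufa4 that is known to be induced by low oxygen, was higher in skull. It gave 61.7, 89.2, 84.7 and 74.0 units in skull and 47.6, 53.8, 53.9, 48.2 and 47.3 in limb, without overlap (0.61 ± 0.12, adjusted p = 0.00417). Ndufa4 itself was at 0.25 ± 0.10 (adjusted p = 0.0854). The other tissue-restricted forms were not called. Cox4i2, the lung form of subunit 4, gave 33.5, 45.4, 57.5 and 62.8 units in skull and 25.9, 41.2, 41.2, 36.9 and 36.8 in limb (0.43 ± 0.22, adjusted p = 0.174). Cox6b2, a testis form, gave 61.8, 42.1, 48.2 and 30.1 in skull and 27.8, 33.3, 32.9, 29.2 and 20.6 in limb (0.64 ± 0.23, adjusted p = 0.0666). Cox7b2, also a testis form, was near background at both sites (1.28 to 14.9 and 3.39 to 11.8 units).

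Complex V held the smallest adjusted p among the members outside the muscle isoforms. Atp5if1, the inhibitor that binds the ATP synthase and blocks its reverse reaction, gave 562, 568, 538 and 519 units in skull and 932, 1000, 1008, 958 and 1041 in limb. The sites were far apart relative to their spread, at 547 ± 23 (SD, n = 4) and 988 ± 43 (SD, n = 5), and the difference was -0.85 ± 0.05 (adjusted p = 1.49e-05). The other 2 probe sets of the gene were dim, at means of 25.1 and 6.99 units, and were not called. When all probe sets were averaged the difference was -0.23 (adjusted p = 0.229). Atp5if1 is known for a role in haem synthesis of red cell precursors. Of 10 erythroid markers, 10 were at least 2-fold lower in skull, against 4.47% of all genes. The summed signals of these markers were 5734 to 7831 units in skull and 15014 to 18224 in limb. Alas2, the erythroid enzyme of haem synthesis, was 1336 to 1730 in skull and 2714 to 3400 in limb (-1.01 ± 0.10). The part of red cell precursors in the Atp5if1 difference was not tested.

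The catalytic core of the ATP synthase did not show a difference of this kind. Atp5f1b, the beta subunit, which the study used as a reference gene for PCR, gave 2610, 2774, 2981 and 2649 units in skull and 2818, 2816, 3249, 2563 and 2860 in limb (-0.05 ± 0.09, interval -0.25 to 0.14). Atp5f1a, the alpha subunit, gave 1386, 1406, 1378 and 1071 in skull and 1324, 1351, 1306, 1179 and 1435 in limb (-0.02 ± 0.10, interval -0.23 to 0.20). Atp5f1c, the gamma subunit, gave 1482, 1516, 1794 and 1099 in skull and 1782, 1602, 1605, 1351 and 1476 in limb (-0.10 ± 0.14, interval -0.42 to 0.21). All 3 intervals excluded a 2-fold difference.

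Atp5f1e, the epsilon subunit, was higher in skull at the edge of the threshold, with 1848, 2026, 2362 and 1606 units in skull and 1742, 1563, 1488, 1406 and 1283 in limb (0.38 ± 0.13, adjusted p = 0.0441). Skull 4 lay inside the limb range, and the call was lost under 11 of 20 alternatives (adjusted p from 0.00198 to 0.109), among them leaving out skull 1, 2 or 3 or limb 2, 3, 4 or 5. Atp5pd, a stalk subunit, gave 1350, 1349, 1366 and 949 units in skull and 1737, 1624, 1663, 1391 and 1487 in limb. It did not overlap but was not called (-0.35 ± 0.12, adjusted p = 0.06). Atp5me, of the membrane part, was at 0.11 ± 0.10. Differences in the membrane part of the enzyme lay between -0.06 and 0.11 over 6 subunits.

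**Figure D4:**
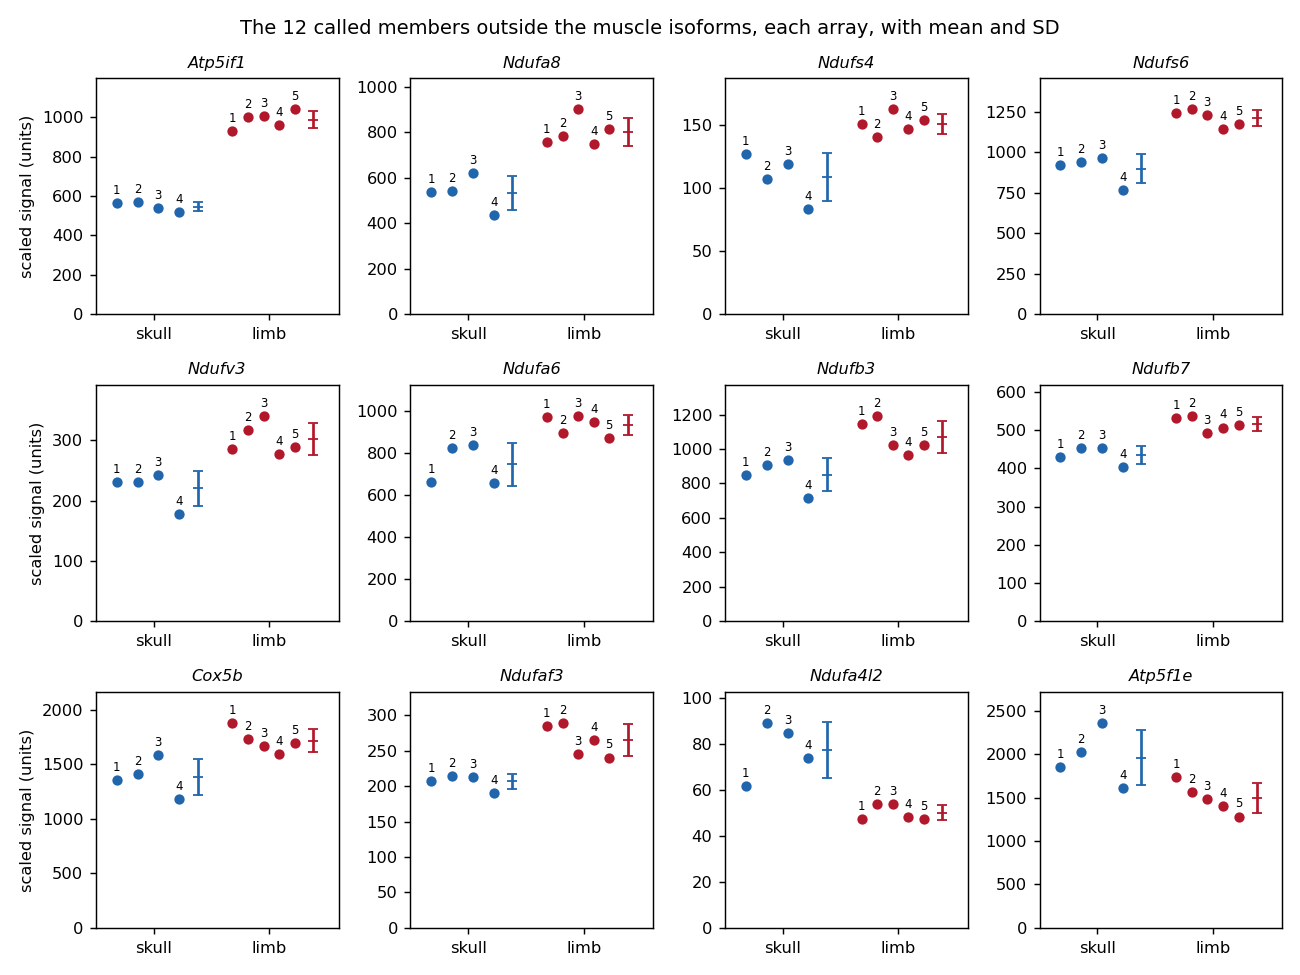
Scaled signal (vertical axes from 0, a scale for each gene) of the 12 called members outside the muscle isoforms on each array, numbered by replicate, with the mean and SD of each site beside the points. The first 10 genes are lower in skull without overlap, Ndufa4l2 is higher without overlap, and skull 4 of Atp5f1e (1606) lies below limb 1 (1742).

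Within each site the members moved together from array to array. Skull 4 was the lowest skull array for 73 of the 83 members outside the muscle isoforms (88.0%), against 38.8% of all genes and 46.3% of those at or above the median signal. Skull 3 was the highest for 58 (69.9%, against 33.1%). Mean log2 signals of the 83 were 9.20, 9.28, 9.37 and 8.996 on skull 1 to 4 and 9.35, 9.28, 9.28, 9.19 and 9.18 on limb 1 to 5. Limb 1 was the highest limb array for 43 members (51.8%, against 20.7% of all genes). The lowest was limb 5 for 37 (44.6%, against 20.8%) and limb 4 for 33 (39.8%, against 16.7%). Limb 1 was thus most often the top array of the members as well as of the muscle markers. Complex I was at 8.93 on skull 4 and 9.17 to 9.40 on the other skull arrays, and complex IV without its muscle isoforms was at 8.73 and 8.84 to 8.88. Without skull 4 there were 12 lower members, the same 12, and 6 higher, namely Atp5f1e, Cox6b2, Ndufa4, Ndufa4l2, Ndufs8 and Uqcr10.

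Values of RNA quality and of other cells are given beside this pattern, and their part in it was not tested. The log2 ratio of 3′ to 5′ control signal of Gapdh was 0.28, 0.40, 0.59 and 0.54 on skull 1 to 4 and 0.21 to 0.37 on the limb arrays. That of beta-actin was 0.75, 0.84, 1.04 and 1.02 on skull 1 to 4 and 0.57 to 0.86 on the limb arrays. Skull 3 and skull 4 were above every limb array in both ratios. Osteoclast markers were higher in skull for 7 of 9 and osteoblast and matrix markers for 6 of 10, against 14.2% of all genes. These counts compare the sites and do not describe arrays within a site. On skull 1 to 4 the osteoclast markers summed to 10697, 12874, 15430 and 12034 units. The osteoblast and matrix markers summed to 38585, 45188, 50331 and 43804 units on those arrays.

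**Figure D5:**
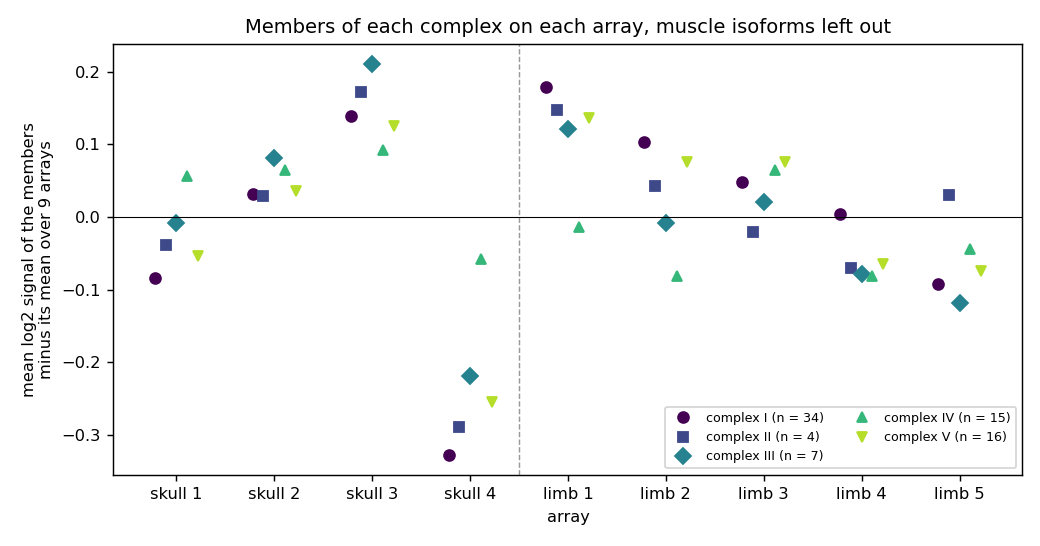
Mean log2 signal of the members of each complex, less its mean over 9 arrays (vertical axis), on each array (horizontal axis), with muscle isoforms left out and points shifted sideways for legibility. Skull 4 is the lowest array for complexes I, II, III and V, and limb 1 is the highest limb array for those 4.

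Other parts of the mitochondrial pathway were read from lists of genes outside the symbol rule, whose counts at any size stand beside 18.1% of all genes called lower and 14.2% higher. Among 15 electron carriers and enzymes or subunits beside the complexes, 2 were lower in skull and none higher (13.3% called), with a median difference of -0.07. Both make coenzyme Q. Coq3, a methyltransferase, was 107 to 135 units in skull and 193 to 244 in limb (-0.77 ± 0.10, adjusted p = 0.000387), and Coq6, a monooxygenase, was 51.6 to 88.8 and 96.9 to 134 (-0.72 ± 0.16, adjusted p = 0.00802). The ranges did not overlap for either gene. Of 35 assembly factors, 5 were lower and 2 higher (20.0% called), with a median of -0.13. The smallest adjusted p among the lower ones were those of Coa5 (-0.23 ± 0.04) and Pet100 (-0.53 ± 0.14), both of complex IV assembly, and the higher ones were Ttc19 (0.39 ± 0.10), of complex III, and Atpaf2 (0.23 ± 0.07), of complex V. Taco1, the 2-fold call among them (-1.28 ± 0.41, adjusted p = 0.0427), was dim, at 2.90 to 7.31 units in skull and 6.08 to 20.2 in limb.

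The citric acid cycle list gave 1 lower and 1 higher gene of 14 (14.3% called). Dld, a subunit of the 2-oxoacid dehydrogenases, was at -0.26 ± 0.08 (adjusted p = 0.0359) and Pdha1, of pyruvate dehydrogenase, at 0.23 ± 0.06 (adjusted p = 0.0185). Of 16 genes of fatty acid oxidation, 5 were lower and 3 higher, with a median of -0.05. The share called was 50.0%, against 32.3% of all genes and 44.1% of the bright genes. Cpt1b, the muscle form of carnitine palmitoyltransferase, was 30.2 to 38.2 units in skull and 52.5 to 115 in limb (-1.07 ± 0.22, adjusted p = 0.00499) and was highest on limb 1. It was followed by Hadhb (-0.46 ± 0.10), and the higher genes with the smallest adjusted p were Decr1 (0.30 ± 0.07) and Hadh (0.38 ± 0.10). Among 14 mitochondrial carriers and channels, 4 were lower and 1 higher (35.7% called). Ckmt2, the mitochondrial creatine kinase of muscle, was 2.27 to 11.2 units in skull and 401, 271, 168, 137 and 111 on limb 1 to 5 (-5.12 ± 0.49, adjusted p = 8.98e-05), with the same highest and lowest limb array as Cox6a2 and Cox8b. Vdac3, a channel of the outer membrane, was at -0.40 ± 0.09 and Slc25a1, the citrate carrier, at 0.33 ± 0.09.

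Of 19 regulators of mitochondrial genes, 2 were lower and 2 higher and 15 were not called, so that 21.1% were called, against 32.3% of all genes. Nrf1, the factor whose core site was found upstream of 11 members, was 95.7 to 118 units in skull and 126 to 156 in limb (-0.41 ± 0.09, adjusted p = 0.00685), and Yy1, a widely expressed transcription factor, was at -0.43 ± 0.09 (adjusted p = 0.00456). Ppargc1b, a coactivator of mitochondrial genes, was 47.9 to 78.8 in skull and 28.2 to 40.2 in limb (0.88 ± 0.18, adjusted p = 0.00515), and Tfb1m, a methyltransferase of mitochondrial ribosomal RNA, was at 0.41 ± 0.13 (adjusted p = 0.0382). Of 18 genes of import and structure, 5 were lower and none higher (27.8% called), led by Tomm22 (-0.26 ± 0.05) and Timm50 (-0.33 ± 0.06), which belong to the import channels of the outer and inner membranes. The median of that list was -0.16.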

How the data were processed

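Total RNA of 4 calvaria and 5 ulna samples was hybridised to Affymetrix rat GeneChips. The deposited values are intensities on a linear scale, 1 signal for each of 31099 probe sets per array, computed by the authors with MAS5 according to the submitters' processing notes, with the software version not given in the sources used here. Array medians lay between 33.0 and 36.6 units. After removal of 57 control probe sets, each array was divided by its median and multiplied by the mean of the medians. These scaled signals are the units given above. They were floored at their 10th percentile (2.51) and taken to log2, which understates differences of genes at the floor. Folds at dim probe sets are therefore not exact. Skull and limb were compared with limma 3.58.1 under R 4.3.3 (lmFit, and eBayes with an intensity trend), 2-sided, with Benjamini-Hochberg adjustment over 14217 genes at a threshold of 0.05. Second probe sets of a gene were adjusted over all 31042 probe sets. The number of arrays limits the precision, and p-values measure the spread between pools.

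Probe sets were named by the platform annotation, and all 86 members matched the RefSeq gene table (GRCr8) by identifier. The 7 probe sets that name several genes were left out, with differences of -0.49 to 0.23, of which 1 had an adjusted p below 0.05. The members and gene lists were chosen with earlier results of these data known. Named members were the muscle isoforms and their counterparts, tissue-restricted isoforms, complex II, the catalytic or core subunits, every member past both thresholds, and the 2 lowest and 2 highest of each complex at or above the median signal. Of each other list, the 2 called genes with the smallest adjusted p in each direction were named. Other called members, second probe sets, Ndufa4, Taco1 and the marker genes were named after their values were seen. The procedure was tested on simulated data. Alternatives were the floor, a pseudocount of 16, the scaling, averaging of probe sets, a signal filter, the trend, array weights, a replicate block, the one-way analysis of variance of the study's methods and leaving out each array.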

Additional observations from a re-analysis of the deposited data

Results flagged for a closer look

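Of 66 groups of arrays of the named members tested for a single distant array by Dixon's ratio, 11 held one. For a single group chance gives about 1 in 20. The groups share arrays on which the members move together, so that rate cannot be set against the 11 flagged groups. In 4 of them the distant array was skull 4, the lowest of its site: Sdhc at 512 units (the other skull arrays at 662 to 696), Atp5f1a at 1070 (1380 to 1410), Atp5pd at 949 (1350 to 1370) and Atp5me at 465 (553 to 568). Limb 5 was low for Cox6a1 at 1170 units (others 1380 to 1410) and for Atp5me at 407 (508 to 545), and limb 1 was low for Cox4i2 at 25.9 (36.8 to 41.2).

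The remaining 4 concern the muscle isoforms near background. Skull 1 was low for Cox6a2 at 6.28 units (others 18.4 to 20.7) and high for Cox8b at 3.64 (1.06 to 2.13). Cox7a1 was low on skull 3 at 4.43 (15.7 to 18.4) and on limb 4 at 3.09 (19.7 to 31.3).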

How the results depend on the processing

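The 2-fold calls were Cox6a2 and Cox8b under every alternative, and the count of lower members at any size was 9 to 14. The count of higher members, 2, moved to 1 with the floor at the 25th percentile, without the trend, with the replicate block or by the one-way analysis of variance of the methods, to 4 without a floor, 5 with the pseudocount or array weights, 6 with bright probe sets alone, 8 without further scaling and 11 after quantile normalisation. The 11 were Atp5f1e, Atp5mc3, Cox6a1, Cox8a, Ndufa1, Ndufa3, Ndufa4, Ndufa4l2, Ndufs1, Ndufs8 and Uqcr10. It was 1 to 6 with an array left out, 6 without skull 4 and 1 without skull 2 or 3 or limb 2, 3, 4 or 5. The signs of uncalled differences near 0 turned under some alternatives, and the causes were not tested. Sdhc was at 0.0291 after quantile normalisation and 0.00316 without further scaling, and -0.1 to 0.0475 with an array left out (positive without skull 4). Ndufv1 was at 0.0203, 0.00531 and -0.0854 to 0.00453 (positive without skull 4). Atp5f1a was at 0.0555 and 0.0395 under those scalings, 0.0283 with array weights, 0.0156 with the replicate block and -0.0554 to 0.0783 with an array left out (positive without skull 4 or limb 5). Atp5f1b was at 0.00183 without further scaling. With an array left out, Sdhb was at -0.172 to 0.0125 and Atp5f1c at -0.204 to 0.0319 (each positive without skull 4), Cox7a1 at -0.93 to 0.15 (positive without skull 3) and Cox7b2 at -0.591 to 0.261 (positive without skull 2 or 3, and 0.152 with the higher floor). The study's methods describe the groups of rats for skull and limb bones together, so the sites may share pools, which the main test leaves out. Whether a number marks a shared pool of rats is not given in the labels. Over all probe sets, deviations of same-numbered skull and limb arrays correlated at -0.01 to 0.04, and those of other pairs at -0.04 to 0.02. The replicate block gave 11 lower members, 10 of them among the 12, and 1 higher, and ended the calls of Ndufa6, Cox5b and Atp5f1e.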
